A study of Oryza sativa with 12 samples.

Results

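Os06t0142050-00 and Os06t0143400-01 are transcripts of 2 loci on chromosome 6, separated by 11 loci with rows in the SNP table. The roots of the hybrid Xieyou9308 carried mostly the Xieqingzao B allele of the former and mostly the R9308 allele of the latter. The pair was selected on these hybrid allele reads, so the hybrid shares of both are given as a description with no test. The neighbourhood was taken as all rows with a locus number from Os06t0141000 to Os06t0144999. It held 133 rows in 29 transcripts of 25 loci, out of 249857 rows in 28182 transcripts of 23892 loci. Os06t0142050-00 had 2 rows and Os06t0143400-01 had 20.

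RNA was sequenced from roots of Xieyou9308, of its female parent Xieqingzao B and of its male parent R9308 at the tillering and the heading stage. Each genotype gave 2 roots at each stage, 12 samples in all, from plants grown in the field and then on floating foam in nutrient solution. Before SNPs were called, the reads of the 2 roots were pooled, so the table holds 6 columns of calls, and no spread between replicates can be had. All tests and intervals below cover counting error only and compare these pooled libraries, and reads of amplified libraries are not independent molecules. In whole roots, fewer cells of a type and less RNA per cell cannot be told apart. Root markers were not checked, because the table pairs its identifiers with no gene names.

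An F1 hybrid carries 1 copy of each parental allele in the same nuclei, so a base that differs between the parents assigns a read to its allele. A difference between the alleles within the hybrid is usually ascribed to variation in or near the gene itself, because both alleles meet the same regulatory proteins. The paper annotates Os06t0143400 as similar to an acyl-ACP thioesterase. Enzymes of this family act in plastids, where they release newly made fatty acids from their acyl carrier protein, after which the fatty acids can leave for lipid synthesis elsewhere in the cell. Os06t0142050 carries no annotation in the sources used here, and no role is given for it.

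At 9 rows of the pair the main bases of the parents were called at both stages and differed. The first letter below is the R9308 base, the number is the position counted from 1 at the start of the transcript, and the last letter is the Xieqingzao B base. In Os06t0142050-00 they were T427C and C543T. In Os06t0143400-01 they were A241T, A466G, C577T, G1231A, C1246T, G1316A and C1459T. R9308 had the reference base at all 9. Among all retained sites with a settled read order at tillering, the median R9308 allele share was 52.7% where R9308 had the reference base and 47.2% where Xieqingzao B had it. At heading these medians were 52.9% and 47.6%. In the hybrid, the majority allele of Os06t0142050-00 was the one that differs from the reference, and that of Os06t0143400-01 was the reference one. The part of reference preference in these shares was not tested.

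A site was retained when each parent had a single base at both stages, the parental bases differed, each parent had at least 10 reads, the hybrid had both bases with at least 20 reads, and no column had a quality score under 20. The pair contributed 3 of the 9325 retained sites, T427C and C543T of Os06t0142050-00 and G1316A of Os06t0143400-01. Of the other 16 retained sites of the neighbourhood, in 10 transcripts, 15 had the reference base in R9308 and 1 in Xieqingzao B.

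The R9308 allele was the minority at both sites of Os06t0142050-00 in the hybrid. At tillering, T427C had 53 reads of the R9308 allele and 97 of the Xieqingzao B allele, an R9308 share of 35.3% (Wilson 95% interval 28.1% to 43.3%). C543T had 41 and 125 reads at that stage, a share of 24.7% (18.8% to 31.8%). The Xieqingzao B allele thus had more reads at both sites, and the intervals of the sites overlapped. At heading, T427C had 13 and 39 reads, a share of 25.0% (15.2% to 38.2%). C543T had 20 and 44 reads, a share of 31.3% (21.2% to 43.4%). The order of the sites was turned between the stages, with overlapping intervals at heading too. The mean share over both sites was 30.0% at tillering and 28.1% at heading.

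Os06t0143400-01 had both bases in the hybrid at 5 of its 7 informative sites, and the R9308 allele was the majority at each. At A241T there were 89 R9308 and 31 Xieqingzao B reads at tillering, and 226 and 53 at heading. At A466G these were 94 and 30 reads, and then 168 and 52. At C577T they were 102 and 32, and then 272 and 76. These 3 sites lie towards the start of the transcript and had fewer reads at tillering than the sites towards its end. C1246T had 202 and 67 reads at tillering and 243 and 76 at heading. The retained site G1316A had 178 and 63 reads at tillering, a share of 73.9% (Wilson 95% interval 68.0% to 79.0%), and 246 and 72 at heading, a share of 77.4% (72.4% to 81.6%). Over the 5 sites the tillering share had a range of 73.9% to 76.1%, and the heading share one of 76.2% to 81.0%. The sites share reads and plants, so they are not replicates of each other. At G1231A and C1459T nothing was called in the hybrid at either stage.

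**Figure D1:**
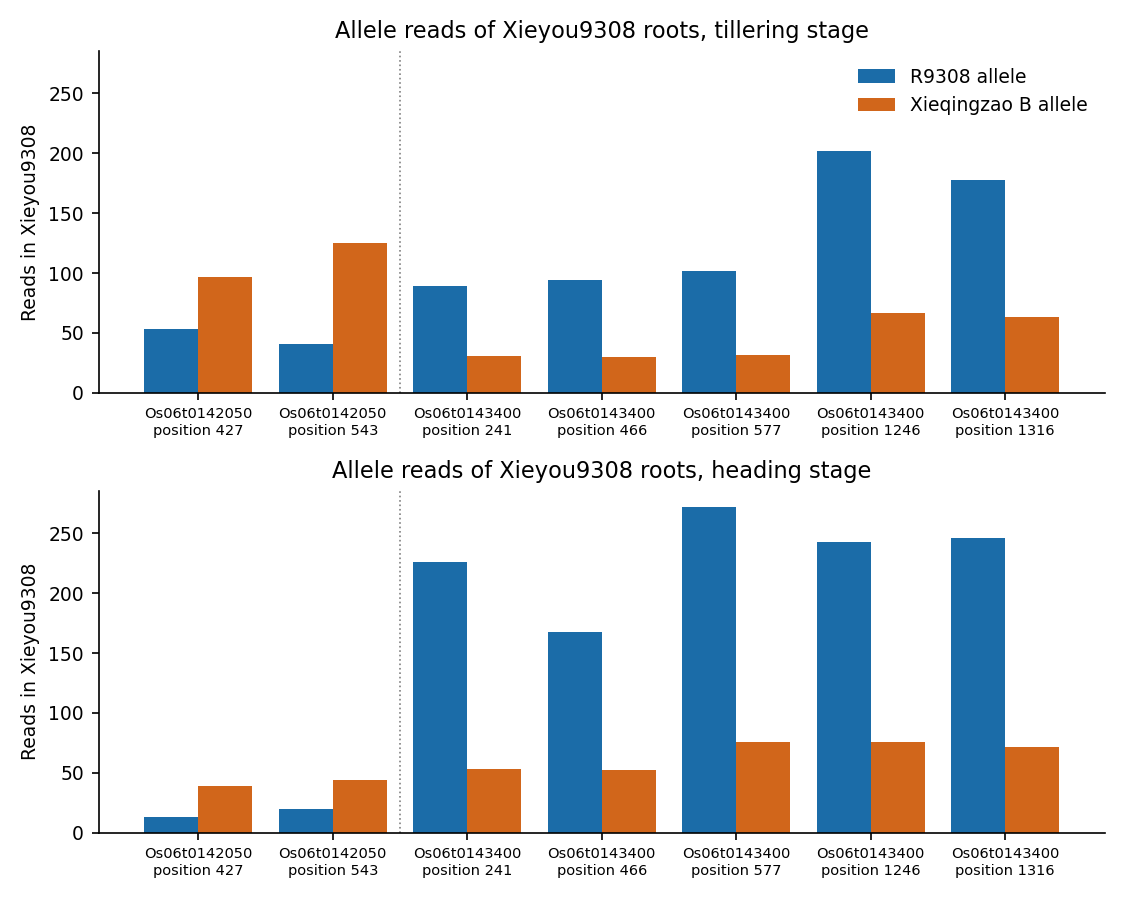
Reads of the R9308 allele and of the Xieqingzao B allele in Xieyou9308 at the 7 sites of the pair with both bases, at tillering (top) and heading (bottom), 1 pooled library per stage. The Xieqingzao B allele has more reads at the 2 sites of Os06t0142050, and the R9308 allele has more at the 5 sites of Os06t0143400, at both stages.

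The parental read depth was not used to choose the pair and was tested at each retained site against the ratio of total depth of the parents (exact binomial test, two-sided, Benjamini-Hochberg adjusted over all 9325 sites). It is not independent of that choice, because the paper found hybrid bias towards R9308 in most transcripts with higher R9308 expression. The shares of all sites given beside the calls include sites without a hybrid bias. A site was called when the adjusted p was under 0.05 and the log2 ratio of R9308 over Xieqingzao B was at least 1 in size. Parental depth and hybrid reads rest on the same mapping to one reference, and the part of reference preference in either was not tested.

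Os06t0142050-00 was deeper in Xieqingzao B. At tillering, T427C had 77 reads in R9308 and 131 in Xieqingzao B, and C543T had 48 and 111. After division by the totals, the log2 ratios were -1.35 (95% interval -1.77 to -0.93, exact test, adjusted p = 6.7e-10) and -1.79 (-2.31 to -1.29, adjusted p = 1.6e-12). Both sites were called, a 2.54-fold and a 3.46-fold higher depth in Xieqingzao B, where 8.60% of all sites were called with Xieqingzao B higher. At heading, T427C had 61 and 106 reads, a log2 ratio of -0.69 (-1.17 to -0.22, exact test, adjusted p = 0.0067), which was below the size needed for a call. C543T had 55 and 123 reads and a log2 ratio of -1.06 (-1.54 to -0.59, exact test, adjusted p = 2.1e-05). It was called, against 13.2% of all sites with Xieqingzao B higher at heading. This call lies at the edge of the size limit and was lost under both other normalizations, at log2 ratios of -0.95 and -0.99.

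Os06t0143400-01 was deeper in R9308, and more so at heading. At G1316A, R9308 had 272 reads and Xieqingzao B 103 at tillering, a log2 ratio of 0.82 (95% interval 0.49 to 1.16, exact test, adjusted p = 3.3e-06). This 1.77-fold difference was below the size needed for a call, which 7.27% of all sites reached with R9308 higher. At heading, the reads were 435 and 46, a log2 ratio of 3.35 (2.91 to 3.82, exact test, adjusted p = 3.1e-84). The site was called, with a 10.2-fold higher depth in R9308, where 10.9% of all sites were called in that direction. The other informative sites lay on the same side. With the reads of the own base of Xieqingzao B, the median log2 ratio over the 7 sites was 0.82 at tillering, with values between 0.33 and 1.85. At heading it was 3.34, with values between 2.70 and 4.39. In reads, R9308 had between 158 and 302 and Xieqingzao B between 56 and 130 at tillering. At heading these ranges were 263 to 489 and 25 to 60. In RPM, that is per 1000000 reads at retained sites, the own-base reads of Xieqingzao B reached 163 at tillering, at G1231A, while R9308 had as few as 132, at A466G, so the ranges overlapped across sites at that stage.

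The parental ratio of Os06t0143400-01 differed between the stages. The log2 ratio at G1316A was 2.53 higher at heading than at tillering (exact conditional test, two-sided, adjusted p = 3.8e-19), a call that 19.6% of all sites received in 1 direction or the other. The change had opposite signs in the parents. In RPM, the depth in R9308 was 228 at tillering and 494 at heading, while in Xieqingzao B it was 129 and 48.6. On the log2 scale this is 1.12 in R9308 and -1.41 in Xieqingzao B, and 509 of the 9325 sites had a value at least as high in R9308 and 636 one at least as low in Xieqingzao B. For Os06t0142050-00, the log2 ratio was higher at heading by 0.66 at T427C (exact test, adjusted p = 0.11) and by 0.73 at C543T (adjusted p = 0.097). Neither was called, which does not show that the stages were alike.

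The depth of Os06t0142050-00 in the hybrid was lower at heading. At T427C it was 173 RPM at tillering and 64.8 at heading, and at C543T it was 192 and 79.8. These are log2 differences of -1.42 and -1.26, at or below which 588 and 786 of the 9325 sites lay. In the parents, the log2 differences between the stages at these sites ran from -0.55 to 0.64. Against the mean of the parents, the hybrid had log2 values of 0.60 and 1.10 at tillering and of -0.48 and -0.27 at heading. Os06t0143400-01 stood above the parental mean at both stages at G1316A, by 0.64 at tillering and 0.55 at heading on the log2 scale. At tillering the size of this excess varied with the site. At A241T the hybrid had 138 RPM, beside 154 in R9308 and 95.1 in Xieqingzao B. At C577T it had 155, beside 181 and 113, and at C1246T 310, beside 195 and 155. These depths of the hybrid were not tested.

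**Figure D2:**
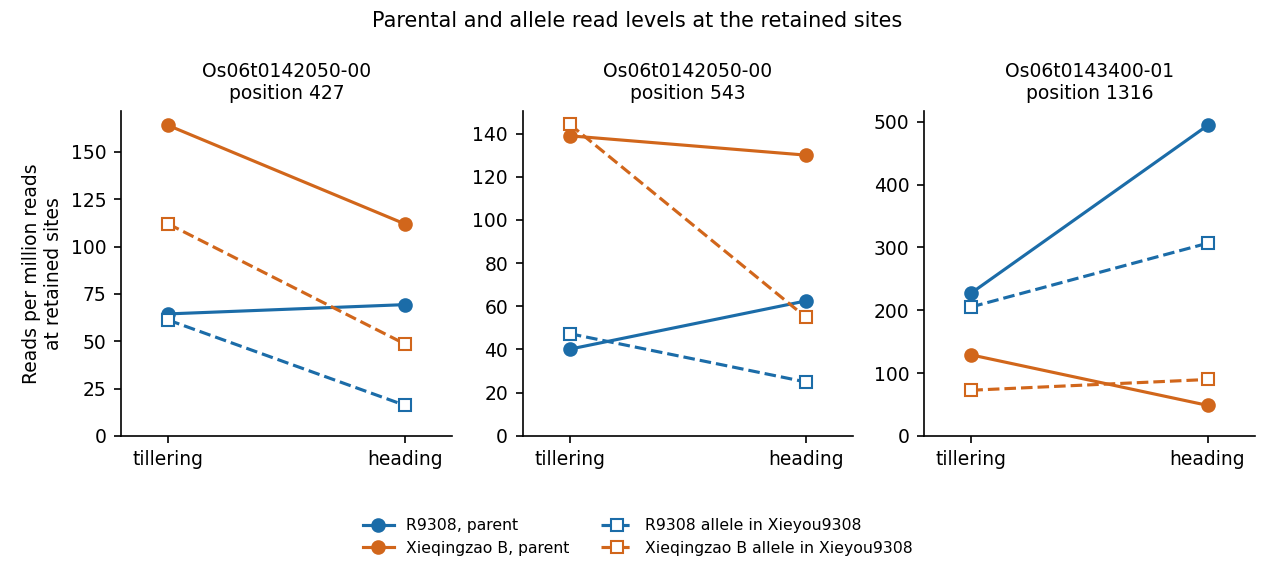
Depth in RPM in each parent (filled circles, solid lines) and for each allele in Xieyou9308 (open squares, dashed lines) at tillering and heading, 1 panel per retained site of the pair and a separate vertical scale in each. At position 1316 of Os06t0143400-01 the Xieqingzao B parent goes from 129 to 48.6 while its allele in the hybrid goes from 72.7 to 89.8.

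The alleles of the hybrid were also set beside the parents on this scale, as a description. The Xieqingzao B allele of Os06t0143400-01 at G1316A had 72.7 RPM in the hybrid at tillering and 89.8 at heading. The Xieqingzao B parent had 129 and 48.6 at the same site, so the allele and the parent moved in opposite directions. The R9308 allele had 205 and 307 at G1316A, beside 228 and 494 in the R9308 parent. The size of this rise differed between the sites. At A241T the R9308 allele had 103 and 282, beside 154 and 365 in the parent. At A466G it had 108 and 210, beside 132 and 299. At C577T it had 118 and 339, beside 181 and 411. At C1246T it had 233 and 303, beside 195 and 482. At G1316A, the log2 ratio of the alleles in the hybrid was above that of the parents by 0.67 at tillering, and at heading the difference was -1.58. In Os06t0142050-00 this difference was 0.48 at T427C and 0.19 at C543T at tillering. At heading it was -0.86 and -0.06. The hybrid reads chose the pair, so these differences were not tested.

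**Figure D3:**
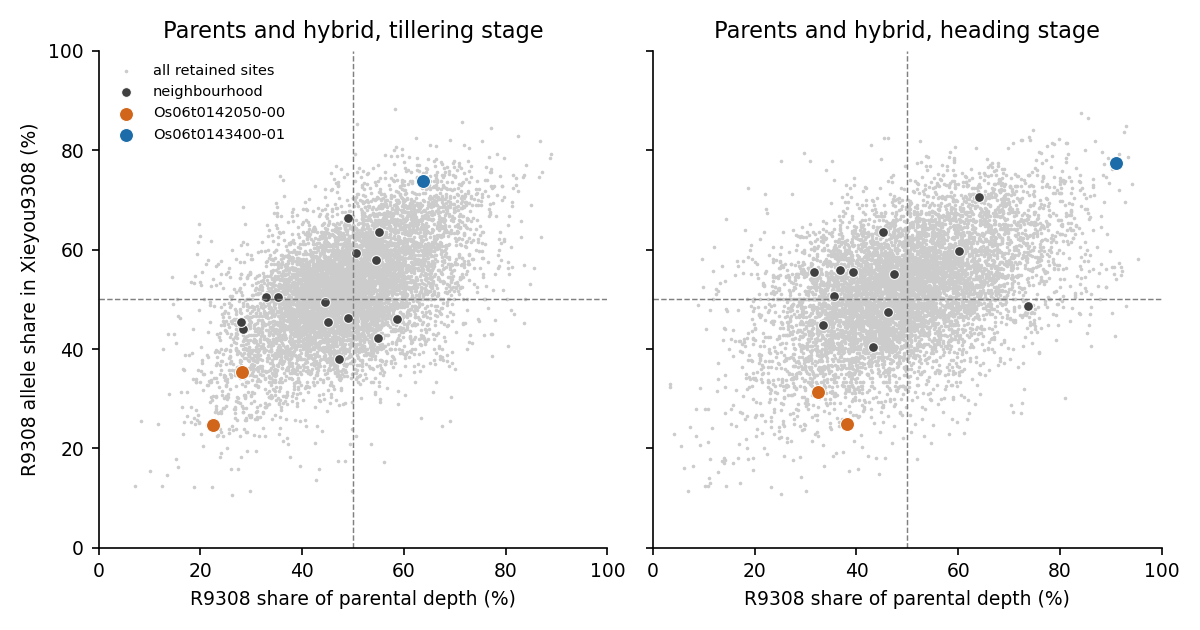
R9308 share of parental depth after division by the column totals (horizontal axis) and R9308 allele share in Xieyou9308 (vertical axis), both in percent, with 1 point per retained site with a settled read order, at tillering (left) and heading (right). Os06t0142050-00 lies at 22.4% to 38.2% of parental depth and Os06t0143400-01 at 63.8% and 91.0%.

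In Xieqingzao B at tillering, 5 of the 7 informative sites of Os06t0143400-01 were called with both bases, the R9308 base among them. The R9308 and Xieqingzao B base had 8 and 68 reads at A241T, 9 and 63 at A466G, and 15 and 75 at C577T. At C1246T they had 14 and 110 reads, and at C1459T 11 and 56. The R9308 base thus made up 10.5% to 16.7% of these reads. The other two sites, G1231A and G1316A, were called with the Xieqingzao B base alone, and at heading all 7 were. At heading the 7 sites had 25 to 60 reads in Xieqingzao B, so a small share of the R9308 base could go uncalled there. With the hybrid not called at G1231A, G1316A alone met all criteria. Over the whole table, among 20318 sites with 1 base in R9308 at both stages and another in Xieqingzao B at heading, 11.0% had both bases in Xieqingzao B at tillering. With the stages exchanged, 0.850% of 18232 sites had both bases at heading. At the 1210 of the former with a settled read order, the R9308 base had a median of 16.7% of the reads. Of the sites of the other neighbourhood transcripts, 3 of 34 had both bases, and of Os06t0142050-00 0 of 2. Whether RNA of R9308 was mixed into Xieqingzao B at tillering was not tested. Its part in the tillering ratio of 0.82 and the stage difference of 2.53 was not tested either. The ratios given above leave out the reads of the R9308 base only at the 5 sites called with both bases. At G1231A and G1316A the full tillering depth of 130 and 103 reads was used. Whether that depth held reads of the R9308 base is not known.

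The remaining 13 rows of Os06t0143400-01 lay at positions 1 to 24. They were called in R9308 at 9 rows at tillering, with at most 15 reads and always with 1 base. Xieqingzao B had 2 bases at all 13 rows at tillering and at 12 at heading, and at tillering its quality score was under 20 at 10 of them. The numbers of the pair at tillering had no settled order at 12 of the 13 rows, so no share is given. A pair of numbers has no settled order when the first is 1 to 12 and the second lies between 13 and the last day of that month. Over the 6 columns there were 87917 such pairs, while of the 366 pairs with 13 to 31 reads first and 1 to 12 second 0 could be a day and a month. None of the sites of the pair for which a share is given had such numbers.

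At sites with a settled read order, the other transcripts of the neighbourhood had R9308 shares in the hybrid between those of the pair. A pair of numbers without a settled order is unequal by its definition, so the sites left out may lie outside the ranges below. At heading these included position 589 of Os06t0142000-00, with 6 and 20 reads, and position 703 of Os06t0142800-01, with 9 and 23. The 14 sites with a settled order at tillering had a median share of 47.8% (range 38.0% to 66.3%), and the 12 at heading had one of 55.3% (40.4% to 70.7%). At an exact binomial p under 0.01, 2 of 14 sites (14.3%) were called at tillering, against 17.0% of all sites, and 2 of 12 (16.7%) at heading, against 17.7%. Both shares lie near the background.

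At tillering the calls were Os06t0142900-01 at position 1471, where 55 reads were of R9308 and 28 of Xieqingzao B (66.3%, exact binomial p = 0.0040, adjusted p = 0.029), and Os06t0143600-01 at position 271, with 112 and 64 reads (63.6%, exact p = 0.00037, adjusted p = 0.0047). Another site of each went the other way, with 42.3% at position 386 of Os06t0142900-01 and 45.9% at position 470 of Os06t0143600-01. At heading the calls were Os06t0143100-02 at position 135, with 160 and 92 reads (63.5%, exact p = 2.2e-05, adjusted p = 0.00044), and Os06t0143700-01 at position 1164, with 65 and 27 reads (70.7%, exact p = 9.3e-05, adjusted p = 0.0014). With a beta-binomial test that allows for the spread between sites of a transcript, 0 sites were called at tillering and 1 at heading.

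Of the remaining transcripts, Os06t0142000-00 lies next to Os06t0142050-00 and had 44.1% at position 589 at tillering. The best covered sites of Os06t0142200-01, Os06t0142600-01 and Os06t0142800-01, which lie between the pair, had 45.4%, 38.0% and 49.5%. Position 116 of Os06t0142600-01 lay on the other side of 50%, with 59.4% from 19 and 13 reads. On the far side of Os06t0143400-01, Os06t0144600-01 had 46.2% and Os06t0144800-01 had 50.5%. At heading, the sites of Os06t0142000-00 and Os06t0142800-01 had no settled order, and the other 4 transcripts had between 40.4% and 55.9%. Between the stages, 0 of 11 sites differed in the hybrid (Fisher's exact test, adjusted p under 0.05), against 0.380% of all sites. At an unadjusted p under 0.05 there was 1 of 11, beside 579 of 7101 over all sites. It was position 1164 of Os06t0143700-01, with 50.5% at tillering and 70.7% at heading (exact p = 0.0065, adjusted p = 0.27).

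**Figure D4:**
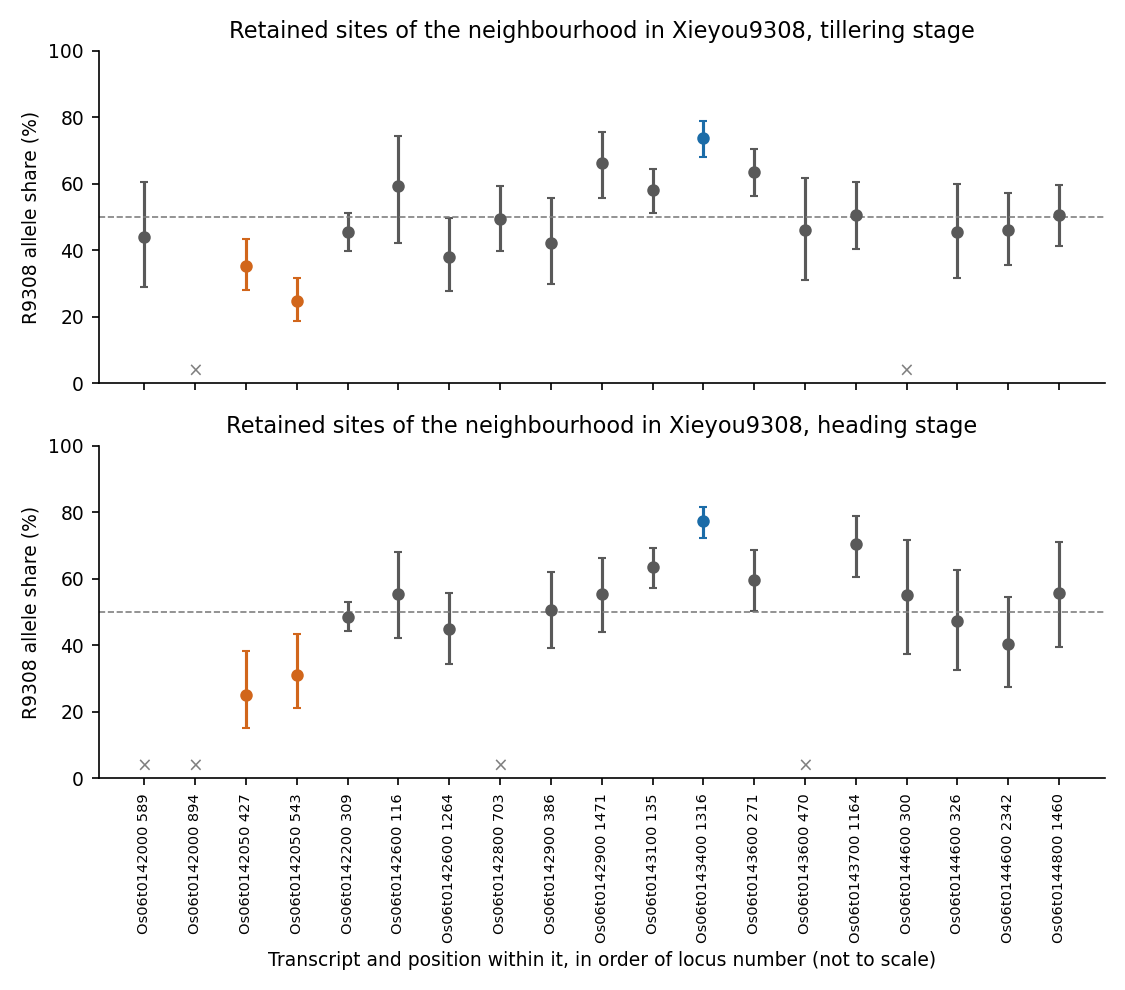
R9308 allele share in Xieyou9308 in percent, with its Wilson 95% interval, at the 19 retained sites of the neighbourhood in order of locus number, at tillering (top) and heading (bottom). Orange marks Os06t0142050-00, blue Os06t0143400-01, grey the other transcripts, and a cross a site whose read order is not settled. The orange points lie between 24.7% and 35.3%, the blue ones at 73.9% and 77.4%.

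In the parents, 3 of the 16 other sites were called at tillering, each with Xieqingzao B higher, against 8.60% of all sites in that direction and 7.27% in the other. They were Os06t0142000-00 at position 589, where R9308 had 23 reads and Xieqingzao B 39 (log2 ratio -1.34, exact test, adjusted p = 0.0016), Os06t0142200-01 at position 309, with 246 and 422 (-1.36, adjusted p = 4.7e-31), and Os06t0143700-01 at position 1164, with 49 and 67 (-1.03, adjusted p = 0.00063). At heading 2 of 16 were called, where the shares over all sites were 13.2% and 10.9%. R9308 was higher at position 309 of Os06t0142200-01, with 109 and 42 reads (1.48, exact test, adjusted p = 2.2e-08), and Xieqingzao B at position 116 of Os06t0142600-01, with 57 and 132 (-1.11, adjusted p = 3.6e-06). The median log2 ratio of the 16 sites was -0.22 at tillering and -0.60 at heading, beside -0.06 and -0.11 over all sites. The 3.35 of Os06t0143400-01 at heading lay above the highest of them, 1.48.

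The parental ratio differed between the stages at 4 of the 16 sites, against 19.6% of all sites, which is near that share. The 2 increases towards R9308 were at position 309 of Os06t0142200-01, by 2.84 on the log2 scale (exact test, adjusted p = 1.7e-23), and at position 1164 of Os06t0143700-01, by 1.87 (adjusted p = 3.4e-07). The ratio changed by -1.14 at position 116 of Os06t0142600-01 (exact test, adjusted p = 0.0044) and by -1.14 at position 386 of Os06t0142900-01 (adjusted p = 0.00033). The best covered sites of both transcripts, positions 1264 and 1471, changed by -0.84 and -0.56 (exact test, adjusted p = 0.013 and 0.071). Neither of these sites was called. The change of 2.53 in Os06t0143400-01 was thus not the largest of the neighbourhood.

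The hybrid ratio differed from the parental ratio at 1 of 14 sites at tillering, against 5.51% of all sites, and at 3 of 12 at heading, against 12.0%. The site called at both stages was position 309 of Os06t0142200-01, with log2 differences of 1.09 (exact test, adjusted p = 3.7e-05) and -1.56 (adjusted p = 0.000002), where the hybrid share was 45.4% and 48.6%. At heading, position 116 of Os06t0142600-01 differed by 1.42 on that scale (exact test, adjusted p = 0.020), and position 135 of Os06t0143100-02 had 1.07 (adjusted p = 5.4e-05). Position 1264 of Os06t0142600-01, its best covered site, had 0.71 at heading and was not called (exact test, adjusted p = 0.24).

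Outside the neighbourhood, 2557 transcripts had a retained site with at least 40 hybrid reads and a settled order at both stages. They were ranked by their distance from each transcript of the pair, at its site with the most hybrid reads (C543T and G1316A), over 4 shares, the R9308 share of parental depth and of the hybrid reads at each stage. Nearest to Os06t0143400-01 was Os12t0442800-01, at a distance of 5.83 percentage points, with hybrid shares of 75.0% and 73.1% and parental shares of 66.1% and 94.1%. It was followed by Os05t0564200-01 at 10.9 and Os01t0556201-00 at 12.0. Nearest to Os06t0142050-00 was Os01t0810800-01, at 8.13, measured from C543T alone, with hybrid shares of 27.6% and 31.9% and parental shares of 24.0% and 39.9%. Os01t0757051-00 followed at 8.97 and Os01t0268100-01 at 9.13. In the first 2 of these 3 Xieqingzao B has the reference base, while the 3 nearest to Os06t0143400-01 share the R9308 reference base with it.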

How the data were processed

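Root RNA of 12 samples was sequenced as paired-end reads. After trimming and filtering, the authors used RSEM to map the reads to the Nipponbare genome (IRGSP build 5.0), and reads of the 2 roots per genotype and stage were pooled. The submitters' processing notes name CASAVA 1.8 and SAMtools 0.1.16. The deposited table gives called bases, numbers of supporting reads (raw counts, single or as pairs) and a quality score per site. Where 1 base was called, it does not say whether reads of another base were seen.

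Sites were retained by the criteria of the paper's methods. Total reads over retained sites lay between 798980 and about 1195180 per column, and parental ratios were divided by the ratio of these totals, 1.50 at tillering and 0.930 at heading. Pairs without a settled order (1227 at tillering and 1394 at heading) were left out of tests of the hybrid. Hybrid shares and the parental ratio at each stage were tested by exact binomial tests. Exact conditional tests were used for the parental ratio between stages and for the hybrid ratio against the parental ratio. For the latter, 0.5 reads were added to hybrid alleles in log2 values only. Hybrid shares between stages were tested by Fisher's exact test. Benjamini-Hochberg adjustment ran over all retained sites. Transcripts named are the pair, each neighbourhood transcript with a retained site and the 3 nearest in pattern. The transcripts, lists and tests were chosen with earlier results of these data known. Alternatives changed depth and quality minimums, pair order, expected share, test, reference parent, normalization and size limit. Tests were checked on simulated reads drawn with counting error only, so the check does not cover spread between sites or roots. The software was Python 3.11.15 with scipy 1.17.1, pandas 2.3.3, numpy 2.4.6 and matplotlib 3.10.9.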

Additional observations from a re-analysis of the deposited data

Results flagged for a closer look

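The ratio of R9308 to Xieqingzao B depth differed between tillering and heading by the exact conditional test at 5 of the 19 retained sites of the neighbourhood, against 19.6% of all sites. As heading minus tillering on the log2 scale, the difference was 2.53 at position 1316 of Os06t0143400-01, 2.84 at position 309 of Os06t0142200-01, 1.87 at position 1164 of Os06t0143700-01, -1.14 at position 116 of Os06t0142600-01 and -1.14 at position 386 of Os06t0142900-01. The best covered sites of Os06t0142600-01 and Os06t0142900-01, positions 1264 and 1471, were not called, at -0.84 and -0.56.

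In rows that were not retained, Xieqingzao B at tillering held reads with the R9308 base of Os06t0143400-01. Their share was 10.5% at position 241, 12.5% at position 466, 16.7% at position 577, 11.3% at position 1246 and 16.4% at position 1459, each from 8 or more reads.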

How the results depend on the processing

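No paired analysis was possible because the reads of the 2 roots of each genotype and stage were pooled before the SNPs were called. For the same reason no replicate could be left out. Of 85 alternative values, 72 kept their direction and side of the threshold, or stayed within 1.5 times the count or within counting error. Some of these 72 rest on the same reads as the main value and could not differ from it. They include the summed share of Os06t0143400-01, with its single retained site, and the share of Os06t0142050-00 over all sites with both bases. The exceptions to the 72 were all counts of neighbourhood sites other than the pair, or position 543 of Os06t0142050-00. At that position the parental log2 ratio at heading was -0.95 with the median ratio as normalization and -0.99 with totals over all sites with a single base in both parents. The 2 sites with a biased hybrid share at tillering became 1 when the median share of the same reference parent was expected and 0 with the beta-binomial test. At heading the latter test left 1 of 2. Where R9308 has the reference base, the hybrid ratio differed from the parental one at 0 sites at tillering and the parents differed at 1 site at heading. With Xieqingzao B as the reference parent only 1 site was left to test. It gave 0 biased shares at either stage, 1 parental difference at each stage and 1 hybrid ratio unlike the parental ratio at heading. With no minimum on the log2 size, the 2 parental differences at heading became 8. The median over all 7 sites of Os06t0143400-01, an alternative chosen after the data were seen, gave parental log2 ratios of 0.82 and 3.34. Within the pair, Os06t0142050-00 had the fewest hybrid reads, 52 and 64 at its sites at heading.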
